A study of Homo sapiens with 6 samples.

Results

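The translation initiation factors and the eIF2 kinases were taken as all genes whose symbol in the array's probe annotation begins with EIF, with EIF1AY left out. Probe sets naming 1 gene only were used, which gave 44 genes of the 12165 measured and 85 probe sets of 22215. Another 6 probe sets named an EIF gene together with a further gene, such as EIF3C with EIF3CL, and were not assigned. All 44 genes had at least 1 value on every array, and no filter on low values was applied, so every member was tested. Of the 44, 1 gene, EIF5A2, lay below the median of all probe sets over the arrays compared.

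The arrays measured mRNA from LNCaP cells, an established human prostate cancer line that depends on androgen signalling and secretes prostate-specific antigen. Cells in serum-containing RPMI medium were exposed for 6 h to 20 µM gedunin, a plant limonoid, or for 6 h to DMSO, its solvent. By the labels there were 3 arrays a group, numbered as biological replicates, with no further treatment or genetic change. Gedunin (3 arrays) was compared with the arrays labelled DMSO 1 and DMSO 2, and the array labelled DMSO 3 was kept apart, for the reason given next.

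The labelled cell type was checked on 8 measured luminal prostate markers and 9 leukocyte markers. The median intensity of the prostate markers was 873 to 1033 on the 5 arrays compared and 24.2 on the array labelled DMSO 3, where 5 of the 8 were at least 8-fold below DMSO 1 and 2. Leukocyte markers had a median of 19.9 to 22.2 on the 5 arrays and 435 on the array labelled DMSO 3, where 6 of the 9 were at least 8-fold above DMSO 1 and 2. The other 3, CD3D, CD3E and CD14, read 20.9, 19.3 and 18.8 there. That array did not carry the markers of its label. Its values are given beside the called members. Upper quartiles of intensity over all probe sets were 142 to 146 on the 5 arrays. In bulk RNA, fewer cells of a type and less RNA per cell cannot be told apart, and the p-values measure only the spread between these arrays.

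Translation of a capped mRNA begins when eIF2, loaded with GTP, brings the initiator tRNA to the small ribosomal subunit. eIF3 and the eIF4F complex (the cap-binding eIF4E, the scaffold eIF4G and the helicase eIF4A) place that subunit at the cap, from where it scans to a start codon. There eIF5 triggers GTP hydrolysis by eIF2, eIF5B joins the large subunit, and eIF2B reloads eIF2 with GTP. Kinases of the EIF2AK family phosphorylate the alpha subunit of eIF2, which blocks eIF2B, slows most translation and favours that of ATF4, a transcription factor of stress genes. This is called the integrated stress response.

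Gedunin raised 4 and lowered 3 of the 44 EIF genes. EIF5, the GTPase-activating factor of eIF2, rose 2.17-fold, EIF2S2, the beta subunit of eIF2, rose 1.85-fold, EIF2AK3, the eIF2 kinase PERK of the endoplasmic reticulum, rose 1.56-fold and EIF4EBP1, a repressor of eIF4E, rose 1.41-fold. EIF4E2 fell by 22.0 percent, EIF4A2 fell by 19.6 percent and EIF1AX fell by 18.5 percent. The 4 rises were called without each array in turn. Of the 3 falls, EIF4E2 was called without gedunin 1 or gedunin 3 but not without gedunin 2, DMSO 1 or DMSO 2, and EIF1AX and EIF4A2 were called in 0 of these 5 fits. The 7 called genes were 15.9 percent of the members, while 17.6 percent of all genes were called (8.22 percent higher and 9.35 percent lower), so the share of members called was close to that of all genes together. With probe sets below the array median dropped, it was lower than that of the genes left, at 18.6 against 32.2 percent. A gene was called at a limma adjusted p under 0.05, with the adjustment over all probe sets.

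**Figure D1:**
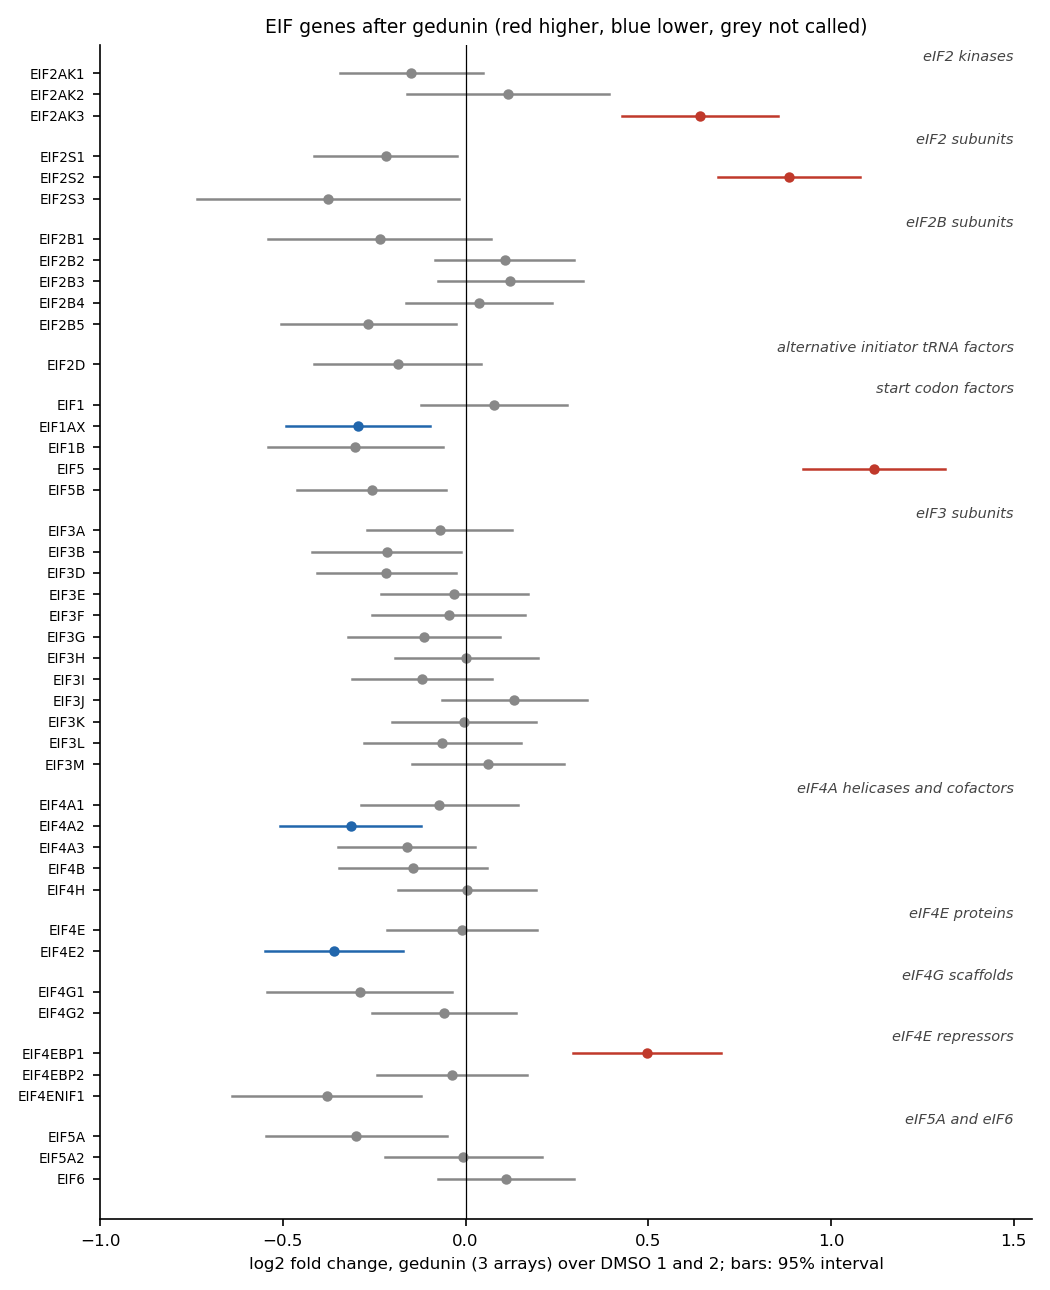
Log2 fold change of the 44 EIF genes, gedunin (3 arrays) over DMSO 1 and 2, grouped by role. Points are estimates and bars are limma's 95% intervals, red where the gene was called higher, blue where lower and grey where not called. EIF5 lies farthest to the right at 1.12, and the 12 eIF3 subunits lie between -0.22 and 0.13.

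Most members moved little, with a median absolute log2 fold change of 0.139, against 0.135 for all genes. With probe sets below the array median dropped, it was 0.145 against 0.204. More of the members pointed down than up. The median log2 fold change was -0.067 over the members and -0.017 over all genes. With probe sets below the array median dropped, it was -0.071 over the 43 members left and -0.064 over the 6875 genes left. Estimates were negative for 30 of the 44 members and for 6516 of all 12165 genes. At an unadjusted limma p under 0.05, 13 members were lower and 4 higher, against 2099 and 1593 of all 12165 genes. All 3 gedunin arrays lay below both DMSO arrays for 18 members (40.9 percent) and above both for 8 (18.2 percent). The same held for 26.0 and 20.2 percent of all genes, and for 36.2 and 24.1 percent of the 6875 genes left when probe sets below the array median were dropped. Groups did not overlap for 46.2 percent of all genes. Among the 6875 genes, 32.2 percent were called (14.6 percent higher and 17.6 percent lower), as were 8 of the 43 members left (18.6 percent), the added member being EIF4ENIF1.

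Centring the arrays on GAPDH and ACTB, 2 genes often used as references, shifted the median of all genes to -0.19 and that of the members to -0.24. The members then split into 4 higher and 18 lower, against 4 and 3 as deposited, and all genes into 651 higher and 3137 lower, against 1000 and 1138. The 4 rises thus held under that scaling, while how many members fell depended on the reference.

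Promoter sequences are shown for 4 members, the first pair called higher and the second pair not called, to set the sequences before the values. They come from RefSeq on GRCh38.p14, as the 250 bases before the annotated start on the gene's own strand. Of the 44 members, 36 had an entry in that set. EIF2S2 and EIF4EBP1 were not among them. In all 4, capitals mark every match, on either strand, to CCAAT, which reads ATTGG on the other strand, to TGACGT, the core of the site read by ATF and CREB factors, and to the E-box CACGTG, the core site of MYC and related factors. The set holds 2 windows for EIF5 and 3 for EIF4G1, of which the one with the most matches is shown. The other windows of these genes held 0 matches to any motif searched. EIF5 lies at chr14:103333987-103334236 on the plus strand, EIF2AK3 at chr2:88627465-88627714 on the minus strand, EIF4E at chr4:98929134-98929383 on the minus strand and EIF4G1 at chr3:184314356-184314605 on the plus strand.
EIF5: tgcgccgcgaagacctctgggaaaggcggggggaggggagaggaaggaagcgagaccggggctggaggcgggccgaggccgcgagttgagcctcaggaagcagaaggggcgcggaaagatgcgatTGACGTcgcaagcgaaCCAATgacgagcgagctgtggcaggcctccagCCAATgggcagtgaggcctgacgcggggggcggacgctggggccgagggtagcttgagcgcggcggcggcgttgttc
EIF2AK3: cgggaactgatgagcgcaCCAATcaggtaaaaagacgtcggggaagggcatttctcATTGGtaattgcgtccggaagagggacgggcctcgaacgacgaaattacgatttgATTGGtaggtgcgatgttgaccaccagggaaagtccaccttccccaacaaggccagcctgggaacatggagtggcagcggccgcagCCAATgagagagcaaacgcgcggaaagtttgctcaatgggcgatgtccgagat
EIF4E: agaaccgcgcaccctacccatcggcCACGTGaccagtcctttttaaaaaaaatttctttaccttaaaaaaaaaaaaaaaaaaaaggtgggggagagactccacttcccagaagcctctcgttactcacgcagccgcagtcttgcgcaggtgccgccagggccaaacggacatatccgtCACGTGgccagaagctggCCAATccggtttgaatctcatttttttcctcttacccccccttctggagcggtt
EIF4G1: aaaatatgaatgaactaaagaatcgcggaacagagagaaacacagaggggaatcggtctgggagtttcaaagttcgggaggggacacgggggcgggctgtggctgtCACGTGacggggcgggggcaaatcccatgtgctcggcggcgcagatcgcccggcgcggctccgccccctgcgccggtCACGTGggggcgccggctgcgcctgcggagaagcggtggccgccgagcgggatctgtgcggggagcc

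In EIF5 the TGACGT match begins 125 bases and the CCAAT matches 109 and 77 bases before the start. In EIF2AK3 the 4 CCAAT matches begin 232, 194, 139 and 53 bases before it. EIF4E holds a CCAAT match as well, 54 bases before its start, beside E-boxes at 225 and 72. On either strand, CCAAT was found in 17 of the 36 members with an entry (47.2 percent) and in 42.5 percent of the 9711 array genes with one, and TGACGT in 5 (13.9 percent) against 12.1 percent. The E-box CACGTG was found in 11 of 36 members (30.6 percent) against 10.6 percent of the array genes. These were EIF1B, EIF2AK2, EIF2B3, EIF3F, EIF3K, EIF4A3, EIF4B, EIF4E, EIF4G1, EIF4H and EIF5A2, none of them called, where 31 of the 36 members with an entry were not called. The letters TGATGNAA, a form of the composite site of C/EBP and ATF factors, were in 0 members against 3.02 percent of array genes. GAANNTTC, the core of the heat shock element, was in 1 member, against 6.42 percent. The motifs were chosen with the values known, and the windows are described without a test.

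Of the 3 eIF2 kinases measured, 1 rose. EIF2AK3, whose product PERK senses unfolded proteins in the endoplasmic reticulum, read 68.0, 73.0 and 76.3 with gedunin and 44.0 and 48.9 on DMSO 1 and 2. The 3 gedunin arrays were thus all above both controls, by a log2 fold change of 0.64 ± 0.095 (SE, n = 3 and 2; limma adjusted p = 0.00142). The array labelled DMSO 3 read 99.6, above all the gedunin arrays, and with it among the controls the value was 0.27 ± 0.32 (limma adjusted p = 0.755). The rise is therefore one against DMSO 1 and 2.

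EIF2AK1, the heme-regulated kinase HRI, read 981, 914 and 972 with gedunin against 1082 and 1036. Its gedunin arrays were all a little lower, at -0.15 ± 0.087, and it was not called (limma adjusted p = 0.323), although its dimmer probe set was called lower at -0.43 (adjusted p = 0.0115). EIF2AK2, the kinase PKR that responds to double-stranded RNA, read 72.6, 93.4 and 70.8 against 70.9 and 73.6. Its groups overlapped (0.12 ± 0.12, adjusted p = 0.623). Within arrays, the change of EIF2AK3 exceeded that of EIF2AK1 by 0.79 and that of EIF2AK2 by 0.53 on the log2 scale, given as a description. EIF2AK4, the kinase GCN2 that responds to uncharged tRNA, was not analysed here.

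Of the 3 subunits of eIF2 itself, 1 rose. EIF2S2, the beta subunit that binds eIF5, read 3964, 4218 and 3991 with gedunin and 2144 and 2251 on DMSO 1 and 2. The groups stood well apart, at a log2 fold change of 0.88 ± 0.087 (SE, n = 3 and 2; limma adjusted p = 9.96e-05), and its second probe set was called higher too, at 0.68. The array labelled DMSO 3 read 1969, below both other controls, and the rise was 0.94 ± 0.087 with it (adjusted p = 0.0146).

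EIF2S1, the alpha subunit that the kinases phosphorylate, read 822, 826 and 883 against 957 and 1006. All gedunin arrays were lower, but the gene was not called at -0.22 ± 0.088 (limma adjusted p = 0.139). Its probe sets differed, since the other 2, both dimmer, were called lower at -0.52 and -0.56 (adjusted p = 0.00356 and 0.00185). EIF2S1 was called lower when arrays were centred on GAPDH and ACTB and when eBayes was run with trend and robust. The same held with the mean of its probe sets and without those whose suffix marks possible cross-hybridisation. EIF2S3, the gamma subunit that binds GTP and the tRNA, read 754, 734 and 579 against 744 and 1059, so that its groups overlapped (-0.38 ± 0.16, adjusted p = 0.162).

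The log2 ratio of EIF2S2 to EIF2S1 lay between 2.18 and 2.35 on the gedunin arrays and at 1.16 on both DMSO arrays, a difference of 1.10 between the groups. That of EIF2S2 to EIF2S3 differed by 1.26. Such differences between relatives, here and further on, are given without a test, since the pairs were formed with the calls known.

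None of the 5 eIF2B subunits, which form the exchange factor of eIF2, was called. Their log2 fold changes ran from -0.27 (EIF2B5, the catalytic epsilon subunit) through -0.23 (EIF2B1), 0.037 (EIF2B4) and 0.11 (EIF2B2) to 0.12 (EIF2B3). By limma, 1 of the 5 had an unadjusted p under 0.05, EIF2B5 with 124, 119 and 104 against 130.1 and 148. Intervals of the 5 reached from -0.54 to 0.32. EIF2D, which can deliver tRNA to the ribosome without eIF2, was not called at -0.19 ± 0.10.

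The factors that act at the start codon held the largest change of the family. EIF5 read 4309, 4180.2 and 4037 with gedunin and 1874 and 1974 on DMSO 1 and 2, with 1531 on the array labelled DMSO 3. Every gedunin array was more than double every control in the arrays compared, at a log2 fold change of 1.12 ± 0.087 (95% interval 0.92 to 1.31; limma adjusted p = 2.09e-05), and 1.23 ± 0.12 with all 6 arrays (adjusted p = 0.0167). Of its 5 probe sets, 4 were called higher, with log2 fold changes of 1.12, 1.46, 1.47 and 1.58. The dimmest, which read 33.2, 44.0 and 36.9 against 33.2 and 29.2, was not called (0.28, adjusted p = 0.186), and it was the 1 probe set left for EIF5 when those with a suffix for possible cross-hybridisation were dropped.

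EIF1AX, which encodes eIF1A, a partner of eIF1 in scanning, read 199, 186 and 203 against 245 and 236. All gedunin arrays were below both controls, at -0.29 ± 0.088 (limma adjusted p = 0.0497), and its other 2 probe sets were not called (-0.072 and -0.19). The array labelled DMSO 3 read 218, between the groups, and the value with it was -0.25 (adjusted p = 0.346). EIF1, which guards the choice of the start codon, was not called on its brightest probe set, with 6370.3, 6902 and 6784 against 6102 and 6572. On 2 of its other 4 probe sets it was called higher, at 0.29 and 0.30 (adjusted p = 0.0486 and 0.0390). EIF1B, a close relative of EIF1, and EIF5B, the subunit-joining GTPase, were not called, at -0.30 ± 0.11 and -0.26 ± 0.091 (adjusted p = 0.0958 and 0.0943), with all gedunin arrays below the controls for each. Both were called lower when centred on GAPDH and ACTB and with eBayes trend and robust, and EIF5B also with log2 of the value plus 16.

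Set against each other within arrays, the change of EIF5 exceeded that of EIF5B by 1.37 and that of EIF1AX by 1.41 on the log2 scale.

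**Figure D2:**
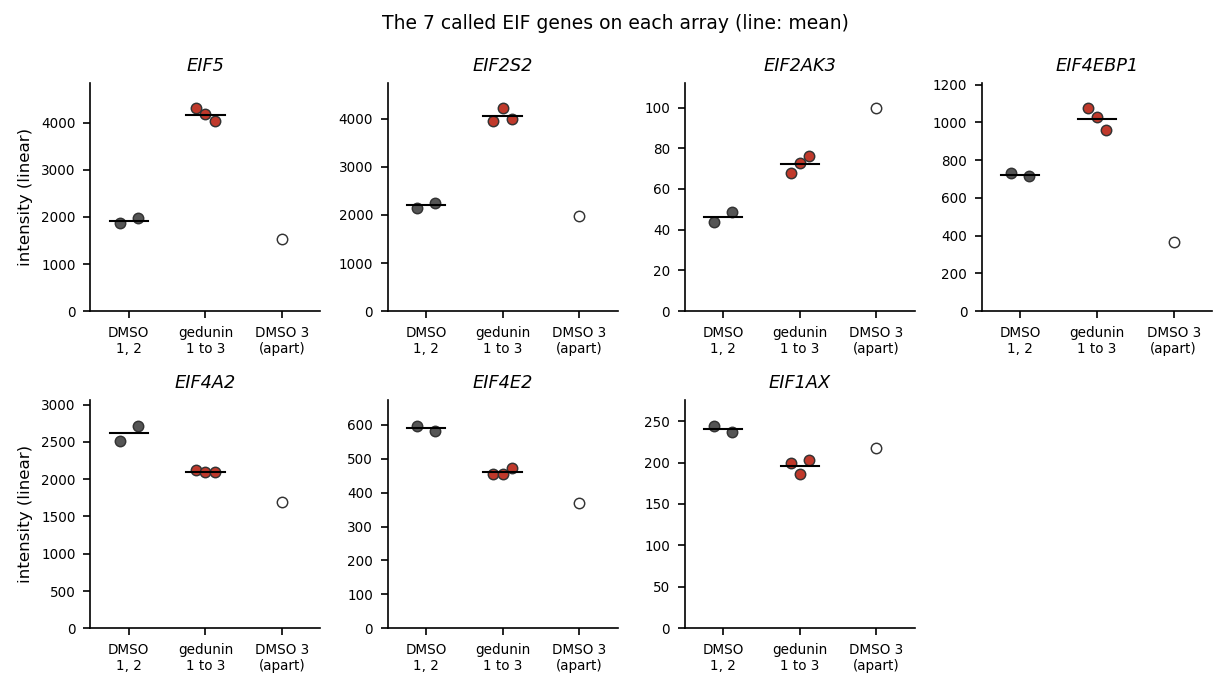
Linear intensity of the 7 called EIF genes on each array, with DMSO 1 and 2 in grey, gedunin 1 to 3 in red and the array labelled DMSO 3 as an open circle. Lines are group means and the axes start at 0. The grey and red points do not overlap in any panel, and the open circle lies above the gedunin arrays for EIF2AK3 and EIF1AX and below them for EIF5, EIF2S2, EIF4EBP1, EIF4A2 and EIF4E2.

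The eIF3 subunits, which build the largest initiation factor and join the small subunit to eIF4G, had no called member. Of the 12 measured, 0 were called by limma (2 had an unadjusted p under 0.05, EIF3B and EIF3D, both lower). EIF3D was called lower when eBayes was run with trend and robust, with log2 of the value plus 16 and, as were EIF3B and EIF3I, when arrays were centred on GAPDH and ACTB. On the probe set that stands for each gene, log2 fold changes ran from -0.22 to 0.13 with a median of -0.055, and intervals lay between -0.42 and 0.33. Dimmer probe sets of EIF3A and EIF3B had intervals that reached -0.60 and -0.50.

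EIF3D, a subunit that can itself bind the cap of some mRNAs, read 1286, 1250.1 and 1206 against 1435 and 1462, lower on every gedunin array by -0.22 ± 0.085 (limma adjusted p = 0.133). EIF3B, a core scaffold subunit, read 802, 805 and 719.6 against 907 and 892, at -0.22 ± 0.092 (adjusted p = 0.161), and 1 of its other 2 probe sets was called lower at -0.31 (adjusted p = 0.0380). EIF3H, with 2768, 2714 and 2955 against 2777 and 2835, and EIF3K, with 2412, 2258 and 2339 against 2434 and 2256, overlapped between groups. EIF3J, a loosely bound subunit, was the 1 subunit with all gedunin arrays higher, at 0.13 ± 0.088 (adjusted p = 0.391). EIF3C was not analysed here, since its probe sets also name EIF3CL.

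Within the eIF4F complex, the brightest probe sets of the main cap-binding and helicase genes, EIF4E and EIF4A1, showed no called change. Those of a close relative of each, EIF4E2 and EIF4A2, were called lower, and both calls were lost without gedunin 2. EIF4E, the cap-binding protein, read 494, 436 and 466 against 472 and 464 and overlapped between groups (-0.0099 ± 0.091, interval -0.21 to 0.19). EIF4E2, a cap-binding homologue that represses translation, read 454, 454 and 471 against 597 and 582. Its gedunin arrays were all lower, at -0.36 ± 0.084 (limma adjusted p = 0.0175), and the 2 dimmer probe sets were not called (-0.13 and -0.082). The array labelled DMSO 3 read 371, below the gedunin arrays, and the value with it was -0.14 (adjusted p = 0.807).

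EIF4A1, the main helicase of eIF4F, read 6037, 6128 and 6987 against 6677 and 6709, with overlapping groups (-0.071 ± 0.096). The dimmest probe set of the same gene, which read 73.0, 68.6 and 45.7 against 98.9 and 107, was called lower (-0.75, adjusted p = 0.0165). EIF4A2, its close paralogue, read 2119, 2092 and 2097 against 2514 and 2719 and fell on every gedunin array, by -0.31 ± 0.086 (limma adjusted p = 0.0358). The array labelled DMSO 3 read 1698, lower still, and the value was -0.11 with all 6 arrays (adjusted p = 0.839). EIF4A3, the helicase placed at exon junctions, read 1029, 1019 and 1059 against 1169 and 1147, at -0.16 ± 0.084, and was not called.

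The differences between relatives were small. The change of EIF4E2 lay 0.35 below that of EIF4E and that of EIF4A2 0.24 below that of EIF4A1, on the log2 scale within arrays.

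EIF4G1, the scaffold, read 1196, 1439.8 and 1125 against 1526 and 1520.3, lower on each gedunin array but not called (-0.29 ± 0.11, limma adjusted p = 0.129). It was called lower without gedunin 2 (-0.39, adjusted p = 0.0321), with eBayes trend and robust and when centred on GAPDH and ACTB. EIF4G2, a homologue used without the cap, overlapped between groups at -0.060 ± 0.088. The helicase cofactors EIF4B and EIF4H were at -0.14 ± 0.091 and 0.0041 ± 0.085, neither called.

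The repressors of eIF4E moved in different ways. EIF4EBP1, which binds eIF4E unless mTORC1 phosphorylates it and whose gene is a known target of ATF4, read 1075, 1027 and 959 with gedunin against 731 and 714. All gedunin arrays were higher, at 0.50 ± 0.090 (limma adjusted p = 0.00452). The array labelled DMSO 3 read 368, which raised the estimate to 0.82 ± 0.29 with all 6 arrays while the call was lost (adjusted p = 0.346). EIF4EBP2, a second such repressor, read 189, 204 and 192 against 189.9 and 211 and overlapped (-0.036 ± 0.092), though its dimmer probe set was called lower (-0.56, adjusted p = 0.0196). EIF4ENIF1, which carries eIF4E into the nucleus, read 79.5, 97.1 and 103 against 119.9 and 121, lower on every gedunin array, and missed the threshold at -0.38 ± 0.12 (adjusted p = 0.0546). It was called lower under 6 of 19 alternative settings, 1 of them without gedunin 3 (-0.46, limma adjusted p = 0.0302). Others were centring on GAPDH and ACTB and dropping probe sets below the array median. Within arrays the change of EIF4EBP1 exceeded that of EIF4EBP2 by 0.53.

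EIF5A, which helps the ribosome through difficult peptide bonds and carries the modified residue hypusine, read 1964, 1947 and 1742 against 2090.3 and 2566. It was lower on all gedunin arrays at -0.30 ± 0.11 (limma adjusted p = 0.109), and its other 2 probe sets gave -0.30 and -0.33, also not called (adjusted p = 0.0664 and 0.0581). EIF5A was called lower when centred on GAPDH and ACTB, with eBayes trend and robust and with the mean of its probe sets. EIF6, which keeps the large subunit from joining too early, was at 0.11 ± 0.083, not called.

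Probe sets of 1 gene did not always give the same call. Of the 85, 10 were called higher and 9 lower, where 15.3 percent of all probe sets were called (7.37 percent higher and 7.91 percent lower). Among the 7 called genes, EIF5 and EIF2S2 had a further probe set called in the same direction, EIF4E2 and EIF1AX had others but none called, and EIF2AK3, EIF4EBP1 and EIF4A2 had 1 probe set each. In 6 genes that were not called, another probe set was, higher in EIF1 and lower in EIF2S1, EIF2AK1, EIF3B, EIF4A1 and EIF4EBP2. No gene had probe sets called in both directions.

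**Figure D3:**
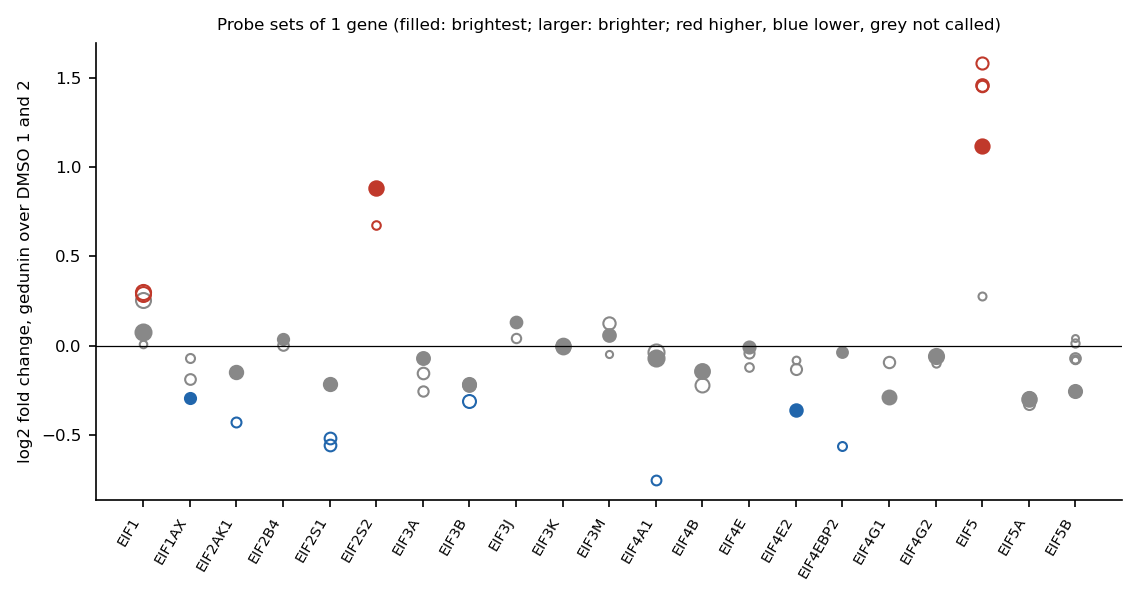
Log2 fold change, gedunin over DMSO 1 and 2, for every probe set of the 21 EIF genes with at least 2. The filled point is the brightest probe set, which stands for the gene, point size grows with intensity, and red, blue and grey mark higher, lower and not called. EIF5 stands apart with 4 probe sets between 1.12 and 1.58, while the 3 probe sets of EIF3K lie between -0.0071 and 0.0017.

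With all 6 arrays, 2 of the 44 members were called, EIF5 and EIF2S2, both higher, where 1.68 percent of all genes were called (1.32 percent higher and 0.353 percent lower). None was called lower by limma in that fit. At an unadjusted p under 0.05, 6 of the 44 members were lower and 3 higher, against 778 and 847 of all 12165 genes. On the array labelled DMSO 3, 3 members (6.82 percent) lay at least 2-fold from the mean of DMSO 1 and 2, all of them above it, against 22.1 percent of all genes. These were EIF2AK2 (161), EIF2AK3 (99.6) and EIF2D (728).

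Genes that work with the initiation factors were compared through 6 lists, beside the 17.6 percent of all genes called (8.22 percent higher and 9.35 percent lower). Of 12 measured ATF4 pathway readouts, the mRNAs raised when eIF2 is phosphorylated and ATF4 is made, 12 were called higher and 0 lower, with a median log2 fold change of 2.07. ATF4 itself read 4828, 5201 and 5120.5 with gedunin against 2963 and 3024, a rise of 0.75 ± 0.087 (limma adjusted p = 2.82e-04). DDIT3, the stress factor CHOP, rose by 4.33, CHAC1, a glutathione-degrading enzyme, by 4.24, ATF3 by 3.94 and TRIB3, a feedback inhibitor of the pathway, by 3.31. With all 6 arrays 5 of the 12 were called, and ATF4 was not (0.97, adjusted p = 0.112). This list was written with earlier results of these arrays known, so its count is no independent evidence of its direction.

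Genes that set the phosphorylation of eIF2 from outside the EIF family moved less. Of 9 measured, 0 were called higher (2 at an unadjusted p under 0.05 by limma) and 1 lower. GCN1, the partner that activates the kinase GCN2 on stalled ribosomes, fell from 329 and 358 to 229.9, 219 and 235, by 0.59 ± 0.090 on the log2 scale (limma adjusted p = 0.00156), a call lost with all 6 arrays (-0.52, adjusted p = 0.104). PPP1R15A, the stress-induced phosphatase subunit GADD34 that removes the phosphate, read 58.6, 59.3 and 53.8 against 52.1 and 30.9 and was not called (0.51 ± 0.18, adjusted p = 0.0924). DNAJC3, an inhibitor of eIF2 kinases, read 81.8, 82.0 and 51.5 against 47.5 and 47.0, above on each gedunin array but not called (0.57 ± 0.18, adjusted p = 0.0629). Leaving out 1 array changed both estimates. DNAJC3 was called higher without gedunin 3 (0.79, limma adjusted p = 5.95e-04) but not without gedunin 1 (0.46, adjusted p = 0.173). PPP1R15A was at 0.89 without DMSO 1, where the control left read 30.9. It was not called without gedunin 1 (0.49, adjusted p = 0.188). With all 6 arrays neither was called, at 0.47 for DNAJC3 and 0.039 for PPP1R15A (adjusted p = 0.503 and 0.979).

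Of 21 measured cap-binding partners and mTORC1 genes, 2 rose and 2 fell (9.52 percent each way, near the share of all genes), with a median of 0.099. MKNK2, a kinase that phosphorylates eIF4E while bound to eIF4G, rose from 1099.8 and 1209 to 3072, 3252 and 2954, by 1.42 ± 0.092 (limma adjusted p = 6.04e-06). GIGYF2, the partner of the EIF4E2 protein in repression, rose by 0.41 ± 0.10, while DDX3X, a helicase that helps structured mRNAs to initiate, fell by 0.52 ± 0.12 and PABPC4, a poly(A)-binding protein, by 0.42 ± 0.086. The call of MKNK2 was made without each array in turn. That of GIGYF2 was lost without gedunin 1, DMSO 1 or DMSO 2 (0.33, 0.40 and 0.41), that of DDX3X without DMSO 1 or DMSO 2 (-0.45 and -0.60) and that of PABPC4 without DMSO 2 (-0.38). None of these 4 was called with all 6 arrays (adjusted p = 0.0648, 0.149, 0.527 and 0.392).

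Of 14 measured genes of elongation, termination and ribosome recycling, 1 rose and 3 fell, with a median of -0.088. ABCE1, the ATPase that splits ribosomes and binds initiation factors, fell from 377 and 428 to 173, 199 and 182, by 1.12 ± 0.10 on the log2 scale (limma adjusted p = 5.42e-05). PELO, which recognises stalled ribosomes, rose by 1.06 ± 0.12 (adjusted p = 1.92e-04). Both calls were made with all 6 arrays too. GSPT2, a release factor, and HBS1L, the GTPase partner of the PELO protein, fell by 0.45 and 0.37, and neither was called without DMSO 1 (-0.49 and -0.36) or without DMSO 2 (-0.42 and -0.39). Without the probe sets whose suffix marks possible cross-hybridisation, PELO was not called (0.075) and HBS1L turned to 0.51. Of 6 exon junction and decay genes, which include partners of EIF4A3, 1 fell, RBM8A by 0.34 ± 0.085 (adjusted p = 0.0236), with 0.10 when all 6 arrays were fitted. Its call was lost without gedunin 2, gedunin 3, DMSO 1 or DMSO 2, at -0.34, -0.32, -0.35 and -0.33. Of 3 genes that modify eIF5A or release eIF6, 0 were called (0 at an unadjusted p under 0.05 by limma).

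**Figure D4:**
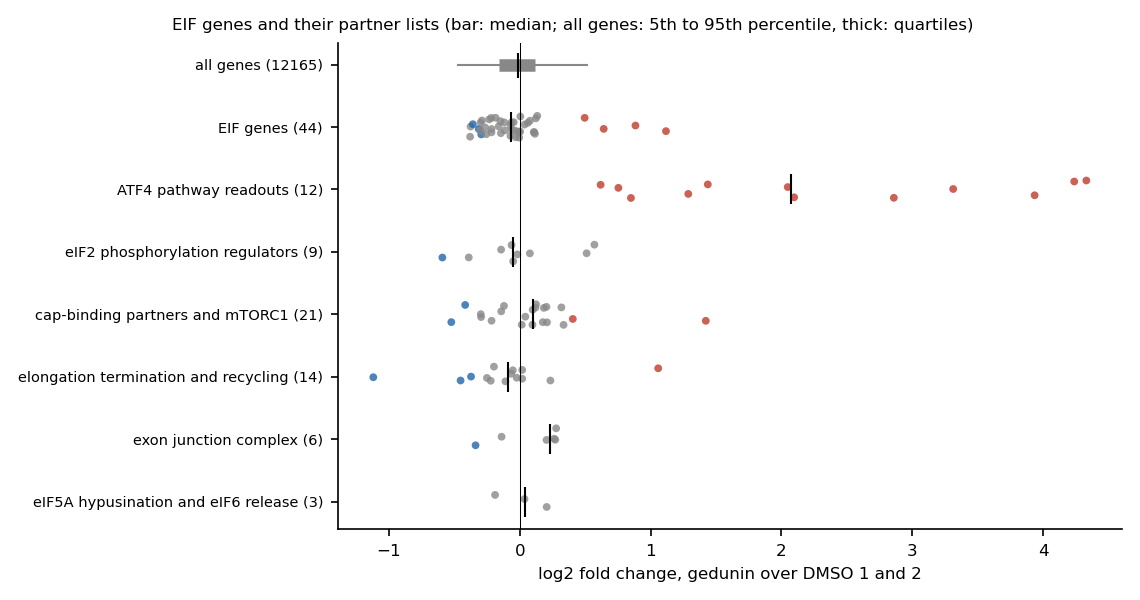
Log2 fold change, gedunin over DMSO 1 and 2, for the EIF genes and the 6 partner lists, with the number of measured genes in brackets and a black bar at each median. Red, blue and grey points were called higher, lower and not called, and the top row gives the 5th to 95th percentile of all genes with the quartiles as a thick bar. The 12 ATF4 pathway readouts lie to the right with a median of 2.07, while the EIF genes centre at -0.067.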

How the data were processed

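Per the labels, 6 Affymetrix arrays were hybridised with biotinylated cRNA from LNCaP cells. The authors deposited 1 intensity per array and probe set on a linear scale, and the submitters' processing notes name RMA, whose version is not given in the sources used here. By its usual steps (background, quantile normalization, probe summary) RMA compresses folds of dim probe sets. No detection calls were used. The members, roles and lists were chosen with earlier results of these data known.

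Log2 values of all 22215 probe sets were fitted with limma (version 3.58.1, R 4.3.3; lmFit and eBayes), gedunin 1 to 3 against DMSO 1 and 2, with Benjamini-Hochberg adjustment over all probe sets and a threshold of 0.05. Each gene was represented by whichever of its probe sets had the greatest 6-array mean. Gene names came from the platform annotation of 2016, and all 44 members matched RefSeq by Entrez identifier with 0 symbols changed. Every EIF gene was eligible to be named, those called with their value on each array. Of each partner list, up to 4 called genes with the largest change were named, with ATF4, DDIT3 and PPP1R15A whatever their result (PPP1R15B, also in that rule, is not analysed here). DNAJC3 was named after its values were seen. The code was tested on simulated data. Replicate numbers were not used to pair the arrays in the main fit. The number of arrays limits the precision.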

Additional observations from a re-analysis of the deposited data

Results flagged for a closer look

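Signal on the array labelled DMSO 3, which the comparison did not use, exceeded that of both other controls at least 2-fold for 3 members. EIF2AK2, the kinase PKR, stood 2.23-fold above the mean of DMSO 1 and 2. EIF2AK3, the kinase PERK, stood 2.15-fold above it, higher than on any gedunin array. EIF2D stood 2.04-fold above it. The same array carried leukocyte markers at a summed intensity of 11837, against 191 to 195 on the other 5 arrays, and prostate markers at 207 against 13217 to 14415. The part of that difference in these 3 values was not tested.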

How the results depend on the processing

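EIF5, EIF2S2, EIF2AK3 and EIF4EBP1 were called higher without each of the 5 arrays in turn. EIF1AX and EIF4A2 were called lower in 0 and EIF4E2 in 2 of these 5 fits, and the members called lower, other genes included, numbered 0 to 2, against 4 called higher in each. With all 6 arrays 2 were called higher and 0 lower. At a threshold of 0.01, 4 were higher and 0 lower. The number called lower rose to 18 when centred on GAPDH and ACTB, to 9 with eBayes trend and robust, to 6 with the mean of a gene's probe sets and to 5 with log2 of the value plus 16. Of all 12165 genes, 3137, 1319, 1274 and 1275 were called lower in these settings, against 1138 in the main fit. Without gedunin 1, 2 or 3, the genes called lower numbered 862, 922 and 1000, and those called higher 854, 851 and 935. The members' median was -0.13 after a second quantile normalization, -0.24 when centred on GAPDH and ACTB and -0.12 over the 29 members left without the _x_at and _s_at probe sets. In that last setting EIF5 rested on its dimmest probe set and was not called (0.28). Leaving out arrays gave medians of -0.10 to -0.049. No EIF gene called against DMSO 1 and 2 changed direction under any alternative. RBM8A turned to 0.10 with all 6 arrays, with or without the replicate block, and HBS1L to 0.0046 with the mean of its probe sets and to 0.51 without the _x_at and _s_at ones. Over all genes, calls numbered 597 higher and 555 lower without DMSO 1, 653 and 528 without DMSO 2, 648 and 559 at the threshold of 0.01, and 573 and 698 without the _x_at and _s_at probe sets. The cause of these differences was not tested.

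With the replicate number as a block, 4 members were higher and 2 lower over 5 arrays, against 901 and 949 of all 12165 genes. Over all 6 arrays the members numbered 0 and 0, where 1 of all 12165 genes was called. Deviations of same-numbered arrays from their group means correlated at -0.013, 0.048 and 0.032, so the numbers were not taken to pair the arrays. Dim signal limits EIF5A2 and the dimmest probe sets of EIF5, EIF1 and EIF5B.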
